A study of Mus musculus with 13 samples.

Results

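The miRNAs described here are mmu-miR-150-5p, mmu-miR-342-3p and mmu-miR-342-5p (the prefix marks mouse and is left out from here on), known for changing as lymphocytes mature. They were taken by name from the 1122 mouse miRNAs of a 1-colour Agilent array, and all 3 were found. The 13 arrays, all of C57BL/6 cells, comprise 3 of late-stage T-ALL (LS), 3 of early-stage T-ALL (ES), 1 of the T-ALL line M295, 3 of DP thymocytes and 3 of DN thymocytes. T-ALL is T-cell acute lymphoblastic leukaemia. LS and ES cells were CD4+CD8+ cells sorted from the spleen of bone marrow chimeras transformed with N1ICD (the released, constitutively active domain of Notch1). M295 is a cultured mouse T-ALL line with spleen as its labelled tissue. DP (CD4+CD8+) and DN (CD4-CD8-) cells were sorted from the thymus of mice with no leukaemia label. The 12 sorted samples are called the primary arrays. Leukaemia and spleen therefore cannot be told apart in any comparison with thymocytes, and the promoter that drove N1ICD and the ages of the mice are not given in the sources used here.

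A mature miRNA guides Argonaute proteins to messenger RNAs, which it recognises mainly through its seed, the bases at positions 2 to 8 from the 5′ end. miR-150 is scarce in lymphoid progenitors and abundant in resting mature B and T cells, and it represses Myb, a transcription factor of progenitors and thymocytes; in human T cells NOTCH3 is also a known target. miR-342 is processed from an intron of Evl, a gene of an actin regulator, and both arms of its hairpin can be loaded into Argonaute. Target messenger RNAs were not measured on these arrays.

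The Mir342 gene lies inside Evl on mouse chromosome 12, and Mir150 lies outside any annotated gene on chromosome 7, in the RefSeq annotation of GRCm38.p6. The mature arms of miR-342 are shown because they come from one transcript but carry different seeds, which are in capitals (RefSeq, GRCm38.p6, plus strand; miR-342-3p at chr12:108658680-108658702 and miR-342-5p at chr12:108658638-108658659).
miR-342-3p: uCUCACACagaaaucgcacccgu
miR-342-5p: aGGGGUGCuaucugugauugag
In the Mir342 hairpin (chr12:108658620-108658718, 99 bases) the 5p arm, at positions 19 to 40, and the 3p arm, at positions 61 to 83, are in capitals.
Mir342 hairpin: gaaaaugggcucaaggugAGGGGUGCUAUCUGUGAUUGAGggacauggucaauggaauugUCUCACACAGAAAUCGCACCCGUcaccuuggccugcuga
Of the mature mouse miRNAs in the same RefSeq table, 0 others carry the seed of miR-342-3p and 0 others that of miR-342-5p.

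Levels are given as log2 scaled signal, which is the background-subtracted fluorescence of a miRNA divided by the 75th percentile of 108 widely detected miRNAs on the same array. A level of 0 equals that percentile, and values are held at a floor of -7.59. An array counts as above background for a miRNA when at least 50% of the spots of 1 of its probes were so marked by the scanner software. Probes differ in brightness, so levels are compared between arrays and never between miRNAs. Of the arrays, 2 stood apart. ES 1 had the noisiest background, with a negative-control SD of 18.7 fluorescence units against at most 7.11 elsewhere, and 115 miRNAs above background. ES 3 had 244 miRNAs above background and a level of 2.85 for miR-223-3p, a miRNA of myeloid cells, against -5.93 on ES 1 and -7.08 on ES 2. Signs and calls that change without ES 1 or ES 3 are given beside the results. On slide 2 each leukaemia stage has 1 array, LS 3 or ES 3, so a test within slide 2 of LS or ES assumes that the lone array varies like the thymocyte pairs. Slide 1 likewise has 1 array of each thymocyte stage, DN 1 or DP 1. Tests within slide 1 thus take their spread from the leukaemia pairs alone. Both miR-142 arms, which mark blood cells of all kinds, were above background in all 4 primary groups. Sums of marker miRNAs add the linear scaled signal only of those above background on an array. A sum of 0 thus means that none was above background. The miR-181a-5p and miR-181b-5p sum, which marks DP thymocytes, was 4.75 to 5.21 in DP against 0.988 to 1.15 in DN. In the leukaemias it was 1.03 to 1.72 in LS and 0.387 to 1.48 in ES, below all DP arrays.

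miR-342-3p was above background on all 13 arrays and higher in leukaemia than in normal thymocytes. On the LS arrays its level was -1.78, -3.00 and -2.41, and on the ES arrays -2.71, -2.77 and -1.55. On the DP arrays it was -4.76, -4.77 and -4.87, and on the DN arrays -3.96, -4.12 and -3.69. Every T-ALL array thus lay above every thymocyte array, as for 15.3% of the 229 tested miRNAs. Every DP array lay below every DN array, as for 40.6% of them. In fluorescence units, before scaling, the T-ALL arrays read 224 to 740 and the thymocyte arrays 57.5 to 105.

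**Figure D1:**
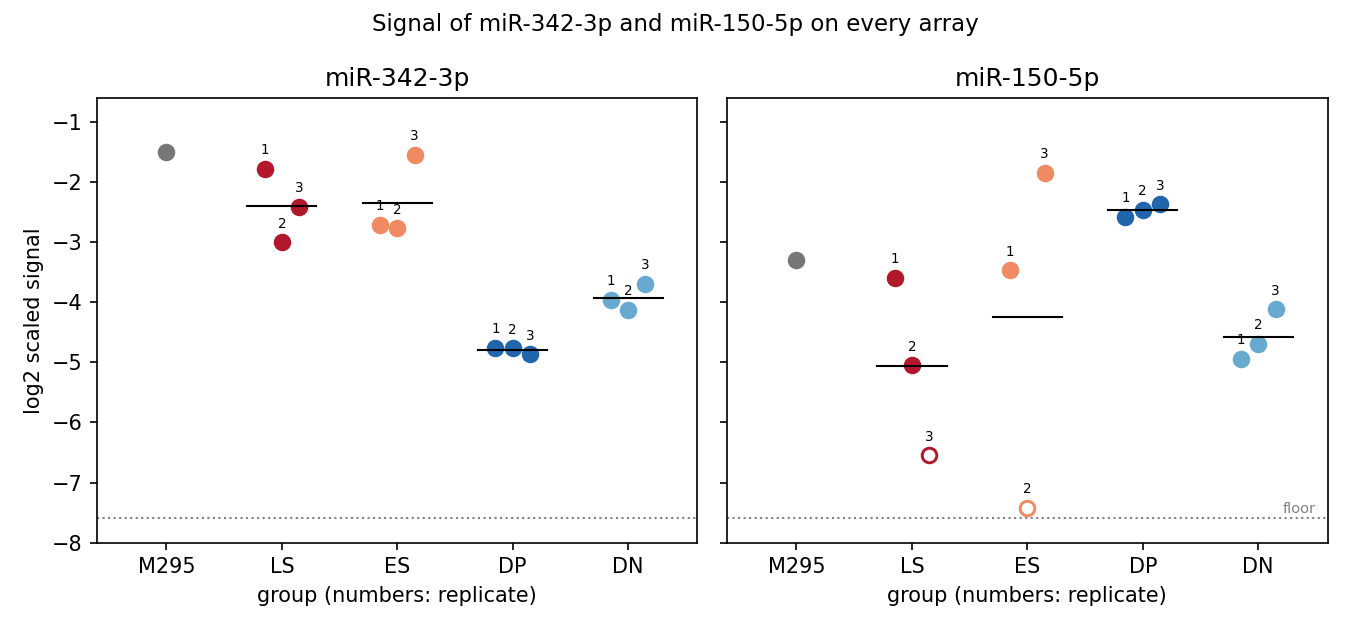
Log2 scaled signal (vertical axis) of miR-342-3p and miR-150-5p on each array, by group (horizontal axis); numbers are replicates, bars are group means, open circles are arrays where the miRNA was not above background, and the dotted line is the floor of -7.59. The 6 T-ALL arrays of miR-342-3p lie above all thymocyte arrays, while those of miR-150-5p spread from -7.43 to -1.85.

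Across both stages miR-342-3p averaged -2.37 ± 0.58 in T-ALL and -4.36 ± 0.50 in thymocytes (SD, n = 6 arrays each). It rose 3.97-fold in T-ALL, a log2 fold change of 1.99 with an SE of 0.26 (limma adjusted p = 2.39e-04). In this comparison 31.4% of the 229 tested miRNAs were called higher, and 15.3% had all T-ALL arrays above all thymocyte arrays. Its change ranked 14 of 229 from the highest. The bulk arrays cannot tell more RNA per cell from more cells of a type that carries it. Without ES 3 its log2 fold change was 1.79, and without ES 1 it was 2.08, both called. It was 1.79 within slide 1 (adjusted p = 0.0924) and 2.38 within slide 2 (adjusted p = 0.00102). Markers of other cells differed between these groups too. Of 5 epithelial miRNAs, 3 were above background in LS and 2 in ES, with a summed linear scaled signal of 0 to 0.0313 in LS and 0 to 0.0294 in ES, against 0 in DP and DN. One of them, miR-141-3p, was at -7.08 to -5.94 on the T-ALL arrays and at or below -7.20 on the thymocyte arrays, and miR-200a-3p and miR-205-5p were at the floor on all arrays. miR-126-3p, a miRNA of endothelial cells and megakaryocytes, fell by 1.47 on the log2 scale in T-ALL. Among the primary groups it was above background only in DN. Against DP alone it was at -0.42 in LS and -0.58 in ES, neither called. Their part in the miR-342-3p difference was not tested.

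Set against DP thymocytes, which share the surface markers of the sorted leukaemia cells, miR-342-3p was higher in both stages. It rose 5.28-fold in LS, by 2.40 on the log2 scale (SE 0.37, limma adjusted p = 4.65e-04), where 32.3% of tested miRNAs were called higher and 41.5% had no overlap in that direction. It rose 5.48-fold in ES, by 2.45 on the log2 scale (SE 0.37, limma adjusted p = 5.01e-04), where 21.0% were called higher and 28.8% had no overlap in that direction. Both comparisons use the same 3 DP arrays. Without ES 3 the ES value was 2.06 and still called. Within slide 1 neither was called, at 2.37 in LS (adjusted p = 0.0952) and 2.02 in ES (adjusted p = 0.155). Within slide 2 the values were 2.41 for the single LS array and 3.27 for the single ES array. Markers of other cells differed here too. The erythroid sum (miR-451, miR-144-3p and miR-144-5p) was 0.0850 to 1.60 in LS and 0.0158 to 0.388 in ES, against 0 to 0.0222 in DP. Of these, miR-451 was called in LS against DP (log2 fold change 4.31). The myeloid sum was 0 to 7.23 in ES, against 0 in LS and DP. Their part in the rise over DP was not tested.

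Against DN thymocytes, the less mature stage, both stages of leukaemia were again higher. miR-342-3p rose 2.88-fold in LS over DN, by 1.53 on the log2 scale (SE 0.37, limma adjusted p = 0.0140), in a comparison with 25.8% of miRNAs called higher and 34.1% without overlap in that direction. It rose 2.99-fold in ES over DN, by 1.58 (SE 0.37, limma adjusted p = 0.0336), where the shares were 3.93% and 20.1%. The ES call ended without any 1 of the 3 DN or 3 DP arrays (adjusted p up to 0.146), and the LS call ended without LS 1 (log2 fold change 1.22, adjusted p = 0.0541). With the replicate number as a block the ES value had an adjusted p = 0.0515, and with only ES and DN arrays in the fit 0.222. Within slide 1 neither was called, at 1.57 in LS (adjusted p = 0.229) and 1.22 in ES (adjusted p = 0.590). Within slide 2 the values were 1.50 for the single LS array and 2.36 for the single ES array. Without ES 3 the ES value was 1.18 and still called. miR-126-3p, not above background in LS or ES, fell in LS (-2.36) and in ES (-2.52) against DN, on the log2 scale. The erythroid miRNAs miR-451 and miR-144-3p had a median log2 difference of -1.43 in LS and -2.45 in ES against DN, neither miRNA called. The part of these markers in the rise over DN was not tested.

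Between the stages of leukaemia miR-342-3p overlapped, at -2.40 ± 0.61 in LS and -2.34 ± 0.69 in ES (SD, n = 3 each). The log2 difference was -0.05 (95% interval -0.87 to 0.76, adjusted p = 0.982). Without ES 3 it was 0.34, and it was 0.35 within slide 1 and -0.86 within slide 2, none of them called. In this comparison 2.62% of tested miRNAs were called.

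**Figure D2:**
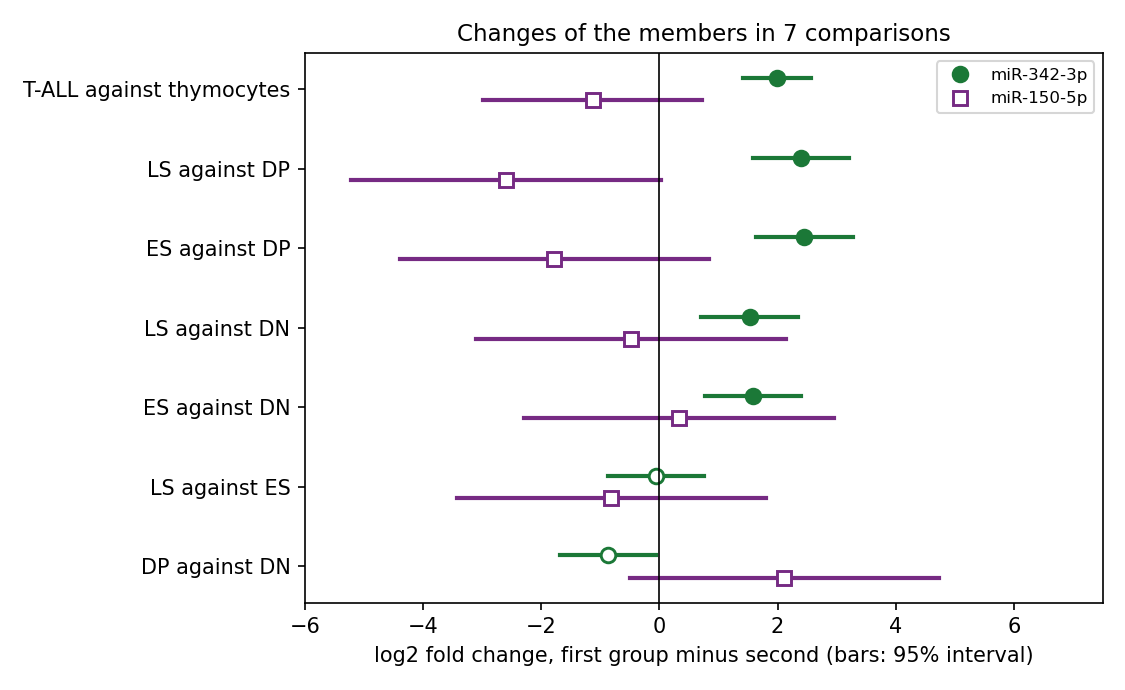
Log2 fold change (horizontal axis, first group minus second) of miR-342-3p (circles) and miR-150-5p (squares) in each comparison, with 95% intervals; filled symbols passed an adjusted p of 0.05. The miR-342-3p intervals lie above 0 in the 5 comparisons of leukaemia with thymocytes, and those of miR-150-5p all include 0.

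miR-150-5p did not overlap between the thymocyte stages and spread widely among leukaemias. Its level was -2.58, -2.46 and -2.37 on the DP arrays and -4.94, -4.69 and -4.11 on the DN arrays. On the LS arrays it was -3.60, -5.05 and -6.55, and on the ES arrays -3.47, -7.43 and -1.85. All DP arrays lay above all DN arrays, as they did for 35.4% of the 229 tested miRNAs. The T-ALL arrays overlapped both stages, 5 of 6 of them lying below DP. It was above background on 10 of the 12 primary arrays, the exceptions being ES 2, at 10.03 fluorescence units, and LS 3, at 17.3.

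The spread among leukaemias was large for a tested miRNA. miR-150-5p had an SD of 2.87 among the 3 ES arrays and 1.48 among the 3 LS arrays, against 0.11 in DP and 0.43 in DN. The median SD over the 229 tested miRNAs was 0.65 in ES, 0.39 in LS, 0.14 in DP and 0.11 in DN, and miR-150-5p ranked 2 of 229 in ES and 6 of 229 in LS from the largest. In fluorescence units the ES arrays read 133, 10.03 and 601, and the LS arrays 156, 59.6 and 17.3. No fold between the highest and lowest T-ALL arrays is given for miR-150-5p, as it was not well above background on ES 2 and LS 3. For miR-342-3p the highest and lowest T-ALL arrays differed 2.74-fold.

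DP thymocytes averaged -2.47 ± 0.11 and DN thymocytes -4.58 ± 0.43 for miR-150-5p (SD, n = 3 each), a 4.33-fold difference. It did not pass the test in the fit of all 12 arrays, which share one spread (2.11 on the log2 scale, SE 1.18, limma adjusted p = 0.214). When only the 6 thymocyte arrays were fitted, a setting added after the data were seen, the same difference had an adjusted p = 2.06e-04, and without ES 2 it had 0.0394. Within slide 1 the difference was 2.36, between the single arrays DP 1 and DN 1, and within slide 2 it was 1.99. In the fit of all 12 arrays 18.8% of miRNAs were called higher in DP and 10.5% lower. Without any test, 35.4% had all DP arrays above all DN arrays.

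miR-342-3p ran the other way between these stages, at -4.80 ± 0.06 in DP and -3.92 ± 0.22 in DN (SD, n = 3 each). Its log2 difference was -0.87 (SE 0.37, adjusted p = 0.103 over all 12 arrays, 0.0253 without ES 3, and 9.79e-04 in the fit of thymocyte arrays alone). All DP arrays below all DN arrays was seen for 40.6% of tested miRNAs. The arrays of miR-342-3p and miR-150-5p thus lay in opposite orders in these stages. Within each array the log2 difference of miR-342-3p minus miR-150-5p was lower by 2.99 in DP than in DN (exact permutation test, two-sided, p = 0.1, the smallest that 3 against 3 arrays allow). The erythroid miRNAs miR-451, miR-144-3p and miR-144-5p moved with the stages too, with a summed linear scaled signal of 0 to 0.0222 in DP and 0.751 to 1.01 in DN, 2 of the 3 being above background in DN. miR-126-3p, not above background in DP, fell by 1.94 on the log2 scale in DP against DN. Their part in the differences between DP and DN was not tested.

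**Figure D3:**
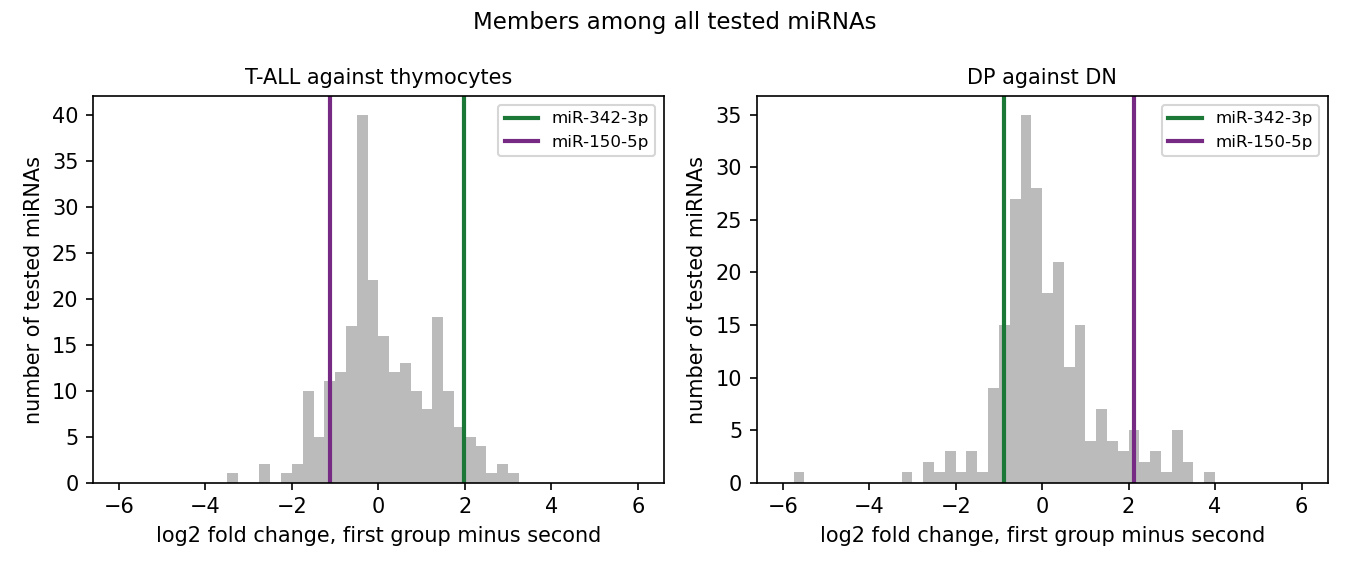
Number of tested miRNAs (vertical axis) by log2 fold change (horizontal axis, first group minus second) for T-ALL against thymocytes and DP against DN, with lines at miR-342-3p (1.99 and -0.87) and miR-150-5p (-1.13 and 2.11). The miRNAs lie on opposite sides of 0 in both comparisons, and miR-150-5p ranked 18 of 229 from the highest in DP against DN.

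The leukaemias lay below DP thymocytes in miR-150-5p on most arrays, but the fit of all arrays did not call it. All 3 LS arrays were below all DP arrays, with a mean of -5.06 ± 1.48 in LS against -2.47 ± 0.11 in DP (SD, n = 3 each). The log2 difference was -2.60 with an SE of 1.18 (limma adjusted p = 0.0770), 6.04-fold lower. The LS mean includes LS 3, where the miRNA was not above background. In 36.7% of tested miRNAs all LS arrays lay below all DP arrays, and 26.2% were called lower in LS. The LS difference passed under some other settings, with a limma adjusted p = 0.0154 in the authors' deposited log2 values, 0.0261 after quantile normalization, 0.00914 without ES 2 and 0.0344 without ES 3. It did not pass without a filter (0.417), with a slide block (0.123), with a replicate block (0.0884) or with mean log2 probe values (0.0602). Without LS 3 it was -1.85 (adjusted p = 0.236). Of 12 other settings, besides leaving out single arrays, 6 left it uncalled. In ES the mean was -4.25 ± 2.87, and the log2 fold change against DP was -1.78 with an SE of 1.18 (adjusted p = 0.229). Without ES 3 it was -2.98 (adjusted p = 0.0414), and without ES 2 it was -0.19 (adjusted p = 0.875). Within slide 1 the values were -1.74 in LS and -2.87 in ES, neither called, and within slide 2 they were -4.14 for LS 3, where the miRNA was not above background, and 0.57 for ES 3. The erythroid sum was 0.0850 to 1.60 in LS and 0.0158 to 0.388 in ES, against 0 to 0.0222 in DP, and its part in these differences was not tested.

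Against DN thymocytes neither stage was called. The log2 fold change of miR-150-5p was -0.48 in LS (95% interval -3.10 to 2.14, adjusted p = 0.807) and 0.33 in ES (95% interval -2.28 to 2.95, adjusted p = 0.910). Without LS 3 the LS value was 0.26, and the ES value was -0.87 without ES 3, -0.05 without ES 1 and 1.92 without ES 2. Within slide 1 they were 0.62 in LS and -0.50 in ES, and within slide 2 they were -2.15 for LS 3 and 2.55 for ES 3, of opposite sign to slide 1. On LS 3 the miRNA was not above background. T-ALL as a whole against thymocytes was at -1.13 (SE 0.83, adjusted p = 0.277). Without ES 2 that value was -0.34 and without ES 3 it was -1.73 (adjusted p = 0.0556). It was -1.12 within slide 1 (adjusted p = 0.629) and -0.79 within slide 2 (adjusted p = 0.0209).

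LS and ES could not be separated in miR-150-5p, with a log2 difference of -0.82 (95% interval -3.44 to 1.80, adjusted p = 0.723). On slide 1, which holds replicates 1 and 2 of each stage, it was 1.13 (adjusted p = 0.793). On slide 2, which holds replicate 3 of each, it was -4.70, a difference between 2 single arrays, with LS 3 not above background. Without ES 3 it was 0.38 (adjusted p = 0.834). The value thus had opposite signs on the 2 slides. ES 3, the array highest in miR-150-5p, was also the one with miR-223-3p far above the rest and with miR-146a-5p at -2.20, against the floor on ES 1 and ES 2. The myeloid sum was 0 on the LS and DP arrays and 0.0251 to 0.0337 in DN, against 7.23 on ES 3. Of the 2 myeloid miRNAs, miR-223-5p was above background in no primary group. The part of other cells in the miR-150-5p level of ES 3 was not tested.

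In T-ALL against thymocytes the changes of miR-342-3p and miR-150-5p differed in a test over all 12 primary arrays. The log2 difference of miR-342-3p minus miR-150-5p within an array averaged 2.29 ± 1.77 in T-ALL and -0.84 ± 1.65 in thymocytes (SD, n = 6 each), a gap of 3.12 (exact permutation test over arrays, two-sided, p = 0.0152). Of the 6 T-ALL arrays, 4 lay above all thymocyte arrays, and ES 1 (0.76) and ES 3 (0.30) did not. The highest were ES 2 at 4.65 and LS 3 at 4.14, the arrays where miR-150-5p was not above background. The thymocyte values fell into the DP arrays, at -2.18 to -2.50, and the DN arrays, at 0.43 to 0.98. ES 1 lay within the DN range and ES 3 below it. The test pools both thymocyte stages as if exchangeable, and the gap was not tested against DP or DN alone. The gap lay between 2.65 and 3.52 when any 1 array was left out. Within slide 1 it was 2.92 (exact permutation p = 0.2) and within slide 2 it was 3.17 (exact permutation p = 0.267). On each slide 15 splits allow no p below 0.0667. With slide as a block the gap was 3.05 (exact permutation p = 0.0356).

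miR-342-5p, the other arm of the Mir342 hairpin, was mostly below detection and was not tested. It was above background on ES 3, LS 1 and M295 only, and on 11 of the 12 primary arrays its summarised value stood at the floor. In fluorescence units LS arrays read 11.3, 5.67 and 8.13, ES arrays 7.27, 6.81 and 9.96, DP arrays 6.90, 8.32 and 7.60, and DN arrays 2.80, 1.20 and 0.700. The DN arrays were the lowest and the other 3 groups overlapped. The SD of the negative controls was 5.21 to 18.7 units. No change can therefore be given for this arm, and whether it moved with miR-342-3p was not tested. miR-150-3p, the other arm of miR-150, was above background on 0 of 13 arrays.

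Single probes of one miRNA gave like differences. For miR-342-3p both probes were above background on all 12 primary arrays, and the T-ALL minus thymocyte differences were 1.98 and 2.00. For miR-150-5p the probes gave -0.95 and -1.07 for T-ALL minus thymocytes and 2.21 and 2.09 for DP minus DN, although they were above background on 5 and 10 of the 12 arrays. Of the 4 probes of miR-342-5p, 3 were above background on 0 primary arrays. The fourth, A_54_P2570, was above background on 2, and its value was -5.57, -6.64 and -5.89 on the LS arrays and -7.01, -6.34 and -5.89 on the ES arrays, against -7.00, -7.33 and -6.63 in DP and -7.29, -7.59 and -7.15 in DN. It averaged -6.22 in T-ALL and -7.16 in thymocytes, a difference of 0.94 with no test, as most of these readings were below the background limit.

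**Figure D4:**
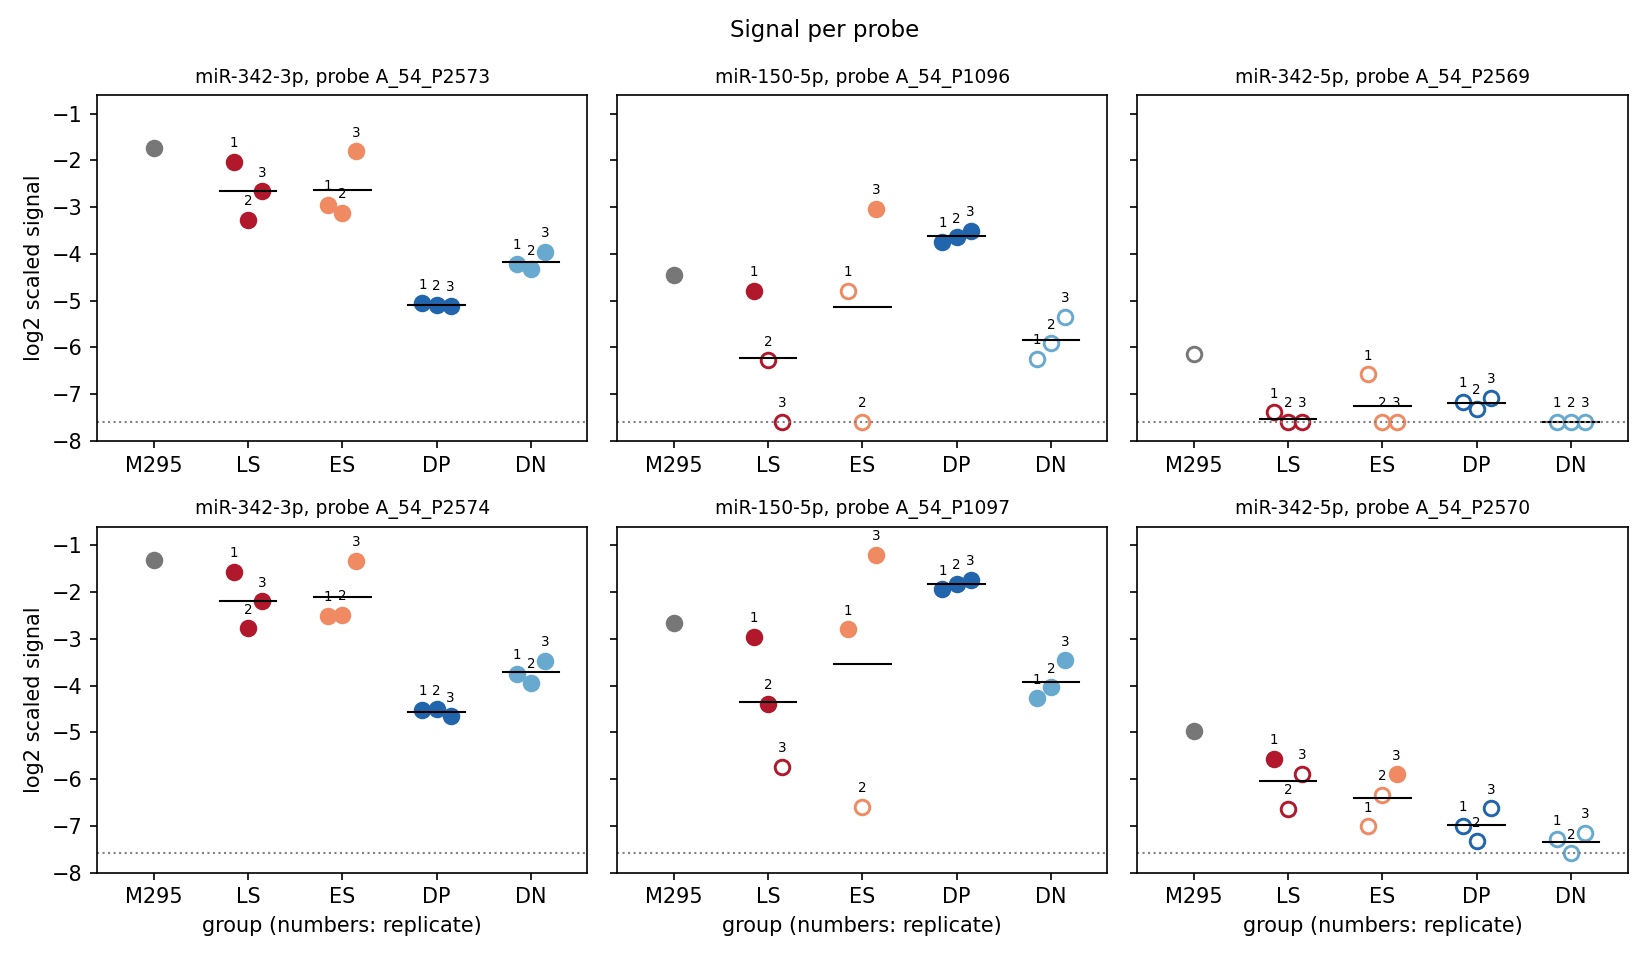
Log2 scaled signal (vertical axis) of single probes by group (horizontal axis): both probes of miR-342-3p, both of miR-150-5p and 2 of the 4 of miR-342-5p (the other 2 stood at the floor on all arrays); numbers are replicates, bars are group means and open circles mark probes not above background. Probes of one miRNA differ in height but order the groups alike for miR-342-3p and miR-150-5p.

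The cultured line M295, with 1 array, read high for both arms of miR-342. miR-342-3p stood at -1.50, above all 6 T-ALL arrays (-3.00 to -1.55). miR-342-5p stood at -6.33, above all 6 T-ALL arrays (-7.59 to -7.38), and its probe A_54_P2570 was above background on 100% of spots. miR-150-5p was at -3.30, above 5 of the 6 T-ALL arrays (-7.43 to -1.85). These are values of 1 culture with no test. In M295 the myeloid miRNA miR-223-3p was at the floor.

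The order of levels can be stated for both measurable miRNAs. For miR-342-3p it ran M295, ES, LS, DN and DP from high to low, where ES and LS did not differ beyond their spread, LS and DN did, and DN and DP did not in the fit of all arrays although their arrays did not overlap. For miR-150-5p the primary groups ran DP, ES, DN and LS, and no neighbouring pair passed the test in the fit of all arrays. The levels of miR-342-3p and miR-150-5p had a Pearson r of -0.25 over the 12 primary arrays and 0.65 over the 6 T-ALL arrays, as a description. The T-ALL value was -0.27 without ES 3 and LS 1, the 2 T-ALL arrays farthest from the T-ALL median of miR-342-3p.

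The miRNAs whose pattern over the 12 primary arrays was most like that of miR-342-3p, of 107 others above background on all of them, were miR-2137 (Pearson r = 0.94), miR-5105 (0.93) and miR-2861 (0.93). For miR-150-5p, of 108, they were miR-140-3p (0.77), known from cartilage, and both arms of miR-142, a miRNA of all blood cells (miR-142-5p 0.76 and miR-142-3p 0.76). These r values describe arrays that share groups and slides, and without ES 3 they ranged from 0.72 for miR-142-3p to 0.93 for miR-2861.

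Among 24 other miRNAs known to change with lymphocyte maturation or activation, 19 were tested. In T-ALL against thymocytes 1 rose, miR-21-5p (log2 fold change 2.14), and 6 fell, namely miR-155-5p (-2.62), miR-26a-5p (-1.65), miR-181a-5p (-1.50), miR-181b-5p (-0.82), miR-26b-5p (-0.52) and miR-30b-5p (-0.46). The median of the 19 was -0.22, against -0.12 over all tested miRNAs, of which 31.4% were called higher and 25.8% lower. miR-21-5p and miR-155-5p are both induced when lymphocytes are activated, and miR-181a-5p, which tunes T-cell receptor signals in thymocytes, marks the DP stage. In DP against DN, 3 rose, miR-181a-5p (2.71), miR-181b-5p (1.33) and miR-26b-5p (0.85), and 2 fell, miR-21-5p (-2.31) and miR-29b-3p (-1.69). The median of the 19 was -0.40, against -0.15 over all tested miRNAs, of which 18.8% were called higher and 10.5% lower. Against DP, 2 rose and 7 fell in LS, and 2 rose and 5 fell in ES, also of 19. Of all tested miRNAs, 32.3% were called higher and 26.2% lower in LS, and 21.0% were called higher and 25.3% lower in ES. Against DN, 0 of the 19 rose and 2 fell in LS, miR-155-5p (-3.47) and miR-27a-3p (-1.94). In ES against DN, 0 rose and 0 fell. Of all 229 tested miRNAs, 76 were called in LS and 15 in ES against DN, in either direction. miR-21-5p was at 0.725 in LS and 1.24 in ES against DN, neither called.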

How the data were processed

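Per the file headers, spots were quantified in Feature Extraction 10.7.3.1 (Agilent), and the deposited scanner files hold background-subtracted spot intensity and raw median intensity, unscaled between arrays. The deposited value table is on the log2 scale with the same median (3.29) in each column, and ranks miRNAs as the deposited total intensity does. Tools listed in the submitters' processing notes are GCOS, MAS5, RMA and affy. Control and outlier spots (4.03 to 8.60% per array) were removed, the linear signals of a probe's spots and then of a miRNA's probes were averaged, and arrays were scaled, floored and put on the log2 scale. The 229 miRNAs above background on all 3 arrays of a group were tested.

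A single limma 3.58.1 model (R 4.3.3) with 1 mean per group covered the 12 primary arrays, and p-values were adjusted by Benjamini-Hochberg over all 229, with a threshold of 0.05. SE is the model's standard error. The labels call the 3 arrays of a group biological replicates. The number of arrays limits the precision. Slide 1 holds DN 1, DP 1, ES 1, ES 2, LS 1, LS 2 and M295, and slide 2 the other 6.

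The members and lists were chosen with earlier results of these data known. Named besides the members were the 3 most correlated miRNAs and called list members. Of the lists of markers, 0 of 5 stromal miRNAs were above background on any primary array, 0 of 5 epithelial ones in DP or DN but 3 in LS and 2 in ES, and of the 2 for endothelial cells and megakaryocytes 1 in DN only. The limma and permutation code was tested on simulated data. Alternatives were other background correction, scaling, probe summary, the authors' table, no filter, an intensity trend, slide and replicate blocks, single slides and leaving out each array. The scanner files hold no mean signal, so normexp used median signals (offset 50), which was added after the data were seen, as was fitting only the groups compared. The planned comparison of the 2 arms of miR-342 was not made because miR-342-5p stood at the floor.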

Additional observations from a re-analysis of the deposited data

How the results depend on the processing

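The rise of miR-342-3p in T-ALL over thymocytes was called under 10 of 11 other settings that keep every array or take 1 slide. Precision is limited by 3 arrays per group, and for miR-150-5p also by signals not above background on ES 2 and LS 3. On slide 1, DN and DP have 1 array each, so the fit there takes its spread from the leukaemia arrays alone. Within slide 1, miR-342-3p was no longer called in T-ALL against thymocytes (log2 1.79), LS against DP (2.37), ES against DP (2.02), LS against DN (1.57) and ES against DN (1.22), and LS against ES turned to 0.35. ES against DN also lost its call at 1.17 with normexp, and at 1.58 without a filter (adjusted p = 0.111), with the replicate number as a block (0.0515) or with only these groups fitted (0.222). LS against DN lost it without a filter (1.53, adjusted p = 0.116). DP against DN became called at -1.17 with the percentile over all miRNAs, -0.95 after quantile normalization, -0.83 in the authors' table, -0.91 within slide 2 and -0.87 with only thymocytes fitted.

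For miR-150-5p, LS against DP became called at -2.80 with the percentile over all miRNAs, -2.95 after quantile normalization, -2.45 in the authors' table, -1.63 with normexp, -4.14 within slide 2 and -2.60 with only these groups fitted. On slide 2, LS and ES have 1 array each (LS 3, with miR-150-5p not above background, and ES 3), which the fit assumes to vary like the thymocytes. There, T-ALL against thymocytes (-0.79), ES against DN (2.55), LS against DN (-2.15), LS against ES (-4.70) and DP against DN (1.99, and 2.11 with only thymocytes fitted) became called, and ES against DP turned to 0.57. Within slide 1, ES against DN turned to -0.50, LS against DN to 0.62 and LS against ES to 1.13. The gap between the changes of both miRNAs was 2.92 within slide 1 (exact permutation p = 0.2) and 3.17 within slide 2 (exact permutation p = 0.267). Slides hold fewer arrays, and the other causes were not tested.

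Same-numbered arrays of different groups correlated at -0.34 to 0.50 (median 0.01) after group means were removed, so the numbers were not taken as pairs, and the replicate block changed no other call of the members. Leaving out 1 array, miR-342-3p ranged from 1.79 to 2.14 in T-ALL against thymocytes, 2.06 to 2.67 in ES against DP, 2.09 to 2.70 in LS against DP, 1.18 to 1.79 in ES against DN, 1.22 to 1.83 in LS against DN, -0.36 to 0.34 in LS against ES and -0.97 to -0.76 in DP against DN. In the same order miR-150-5p ranged from -1.73 to -0.34, -2.98 to -0.19, -3.33 to -1.85, -0.87 to 1.92, -1.22 to 0.26, -2.41 to 0.38 and 1.93 to 2.35. The gap ranged from 2.65 to 3.52. LS against ES turned positive for miR-342-3p without ES 3 or LS 2 (0.25), and ES against DN turned to -0.05 for miR-150-5p without ES 1 and to -0.87 without ES 3. For miR-150-5p LS against ES turned to 0.38 without ES 3, and LS against DN to 0.26 without LS 3. miR-342-3p in DP against DN became called without ES 3 (adjusted p = 0.0253).

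The number of miRNAs called was 131 in T-ALL against thymocytes, 106 in ES against DP, 134 in LS against DP, 15 in ES against DN, 76 in LS against DN, 6 in LS against ES and 67 in DP against DN. Within slide 1 these were 30, 29, 56, 3, 3, 0 and 18. Within slide 2 they were 165 in ES against DP, 137 in ES against DN, 118 in LS against DN, 114 in LS against ES and 123 in DP against DN. With only the groups compared they were 62 in ES against DP, 3 in ES against DN, 0 in LS against ES and 164 in DP against DN. ES against DN gave 42 with the percentile over all miRNAs, 27 after quantile normalization, 4 with normexp, 1 without a filter, 9 with a slide block and 6 with a replicate block. LS against DN gave 21 without a filter, and LS against ES 2 after quantile normalization, 0 without a filter and 3 with either block. Leaving out 1 array gave 110 to 154, 69 to 120, 99 to 164, 0 to 40, 32 to 117, 1 to 55 and 44 to 101. The percentile over all miRNAs moved the median of all tested miRNAs to 0.59 in ES against DP, against 0.07 in the scaling used, and to -0.38 in LS against ES, against 0.29.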
